A study of Mus musculus with 15 samples.

Results

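The genes described here encode claudins and other proteins of the tight junction, and they were taken by symbol from the expression table of a tumor series: CLDN1, CLDN3, CLDN4, CLDN7, CLDN8, OCLN, TJP1, TJP3 and CGN. All 9 were found among the 24891 genes used, and all 9 passed the filter on low values in every comparison. They were named for their function, with no measured value in the rule, but were chosen with earlier results of these data known. The material was 105K, a Tsc2-deficient line that came from the kidney tumor of a Tsc2+/- animal, grown under the skin of 6-week-old male wild-type C57BL/6J mice. There were 5 groups of 3 libraries: bulk tumors labelled either sh-NC (a control short hairpin RNA) or sh-B7-H3 (1), and cells sorted from tumors with those same labels or with a further hairpin, sh-B7-H3 (2). Both hairpins are directed against B7-H3 (CD276), an immune checkpoint protein. Every group, controls included, was Tsc2-deficient and carried a hairpin, and each line was a puromycin-selected pool and not a clone. Sorted cells are what was left after magnetic depletion of host cells, whereas bulk tumors keep the host cells. The labels do not say whether the 3 libraries of a group came from separate animals, and the p-values measure the spread between those libraries.

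Tight junctions seal the space between neighboring epithelial cells near their apical surface. Claudins span the membrane in strands and set which ions and molecules can pass, with some forming barriers and others pores, and occludin (OCLN) joins the strands. The zonula occludens proteins TJP1 (ZO-1) and TJP3 (ZO-3) and cingulin (CGN) lie beneath the membrane, where they tie the strands to actin. In the kidney, CLDN3, CLDN4, CLDN7 and CLDN8 are known from the distal tubule and collecting duct.

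The values are FPKM (fragments normalized to transcript length and library size), rescaled between libraries by median-ratio factors and called levels below. Being per length, they can be set side by side between genes. Fold changes were taken on log2(level + 1), which understates those of low genes. A gene was called changed at an adjusted p below 0.05 by limma, with Benjamini-Hochberg adjustment over every gene tested in that comparison. Read totals are not in the table, and the relative depth of the libraries, read from the spacing of their lowest values, was between 0.468 and 1.

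Library composition was checked before the comparisons. Epithelial markers (CDH1, EPCAM, KRT8, KRT18, KRT19) were high in all libraries, with summed levels from 713 to 1772. The targeted gene CD276 was at 34.0, 20.0 and 17.3 in sorted sh-NC cells, at 7.29, 14.0 and 11.5 in the libraries labelled sh-B7-H3 (1), and at 23.3, 25.4 and 25.7 in those labelled sh-B7-H3 (2). Neither difference from sh-NC passed the limma threshold (adjusted p of 0.0547 for (1) and 0.775 for (2)), so the libraries are named by their labels throughout. In bulk tumors CD276 was at 20.8, 23.2 and 23.5 with sh-NC and at 22.3, 17.8 and 24.4 with the label sh-B7-H3 (1), and the groups overlapped. Replicate 1 of sorted sh-B7-H3 (2) stood apart, with a summed leukocyte marker level of 539.9 against 60.3 and 71.2 in its replicates and a summed endothelial level of 21.5 against at most 0.804 in the other sorted libraries. Member calls for (2) and the list counts were also made without it.

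The upstream sequence of the genes is shown because several of them rose together. RefSeq promoters of GRCm38.p6 (250 bases before to 50 bases after an annotated start, 300 in all) were found for 8 of the 9 genes, with 11 windows. Motifs were searched on both strands: CACCTG (reverse complement CAGGTG), the E-box form bound by zinc finger factors of the SNAI and ZEB families. AACCNGTT is read by grainyhead-like factors, TTCNNNGAA by STAT factors, and GGGCGG by SP factors. None of these 4 motifs contains another. CACCTG occurred in 7 of the 11 windows, from 5 of the 8 genes (CLDN3, CLDN4, CLDN7, TJP3 and OCLN), and in 20.2% of the 32851 mouse promoters of this length. The 2 windows of OCLN overlap and have 1 of these matches in common, so the windows are not all separate. It did not occur in the windows of CLDN1, TJP1 and CGN or at the upstream start of CLDN7. AACCNGTT occurred in 1 window, that of CGN (2.09% of all promoters), TTCNNNGAA in 1, at the downstream start of CLDN7 (8.3%), and GGGCGG in 8 (35.7%). Printed below are windows of 5 genes that rose in sorted cells, of which CGN held no CACCTG, and of CLDN1, which was not called there. They read 5′ to 3′ on the gene's strand, with CACCTG or CAGGTG, AACCNGTT and TTCNNNGAA (either strand) in capitals. These matches describe letters and are not measured binding sites.

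CLDN7, downstream start, chr11:69965171-69965470, plus strand: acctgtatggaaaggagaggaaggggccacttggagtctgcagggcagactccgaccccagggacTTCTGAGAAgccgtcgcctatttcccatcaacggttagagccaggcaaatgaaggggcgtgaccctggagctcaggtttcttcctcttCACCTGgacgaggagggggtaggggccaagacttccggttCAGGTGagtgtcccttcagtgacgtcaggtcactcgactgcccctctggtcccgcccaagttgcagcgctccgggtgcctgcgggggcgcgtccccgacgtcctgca
CLDN4, chr5:134946885-134947184, minus strand: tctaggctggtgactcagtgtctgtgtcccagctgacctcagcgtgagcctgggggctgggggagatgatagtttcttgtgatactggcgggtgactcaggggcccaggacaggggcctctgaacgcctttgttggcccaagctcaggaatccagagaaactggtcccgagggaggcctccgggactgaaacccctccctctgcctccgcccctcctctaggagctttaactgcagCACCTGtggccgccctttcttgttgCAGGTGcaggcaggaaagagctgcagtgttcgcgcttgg
CLDN3, chr5:134985964-134986263, plus strand: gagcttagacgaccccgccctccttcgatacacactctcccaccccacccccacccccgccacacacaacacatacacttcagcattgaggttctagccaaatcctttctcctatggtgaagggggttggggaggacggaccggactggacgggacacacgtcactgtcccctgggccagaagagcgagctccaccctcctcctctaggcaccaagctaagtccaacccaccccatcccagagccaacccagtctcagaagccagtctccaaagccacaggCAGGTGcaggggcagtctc
TJP3, upstream start, chr10:81291532-81291831, minus strand: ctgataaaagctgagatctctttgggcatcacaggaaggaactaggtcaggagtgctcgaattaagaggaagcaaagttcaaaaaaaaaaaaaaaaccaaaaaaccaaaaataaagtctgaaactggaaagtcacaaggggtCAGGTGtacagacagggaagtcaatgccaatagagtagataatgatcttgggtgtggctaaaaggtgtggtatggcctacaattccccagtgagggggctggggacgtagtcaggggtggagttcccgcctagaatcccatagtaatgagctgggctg
CGN, chr3:94786433-94786732, minus strand: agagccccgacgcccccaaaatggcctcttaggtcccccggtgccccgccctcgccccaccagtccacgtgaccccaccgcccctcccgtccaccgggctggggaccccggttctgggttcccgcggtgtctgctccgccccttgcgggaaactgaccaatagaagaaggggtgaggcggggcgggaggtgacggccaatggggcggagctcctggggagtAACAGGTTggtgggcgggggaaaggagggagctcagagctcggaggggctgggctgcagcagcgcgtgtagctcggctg
CLDN1, chr16:26371790-26372089, minus strand: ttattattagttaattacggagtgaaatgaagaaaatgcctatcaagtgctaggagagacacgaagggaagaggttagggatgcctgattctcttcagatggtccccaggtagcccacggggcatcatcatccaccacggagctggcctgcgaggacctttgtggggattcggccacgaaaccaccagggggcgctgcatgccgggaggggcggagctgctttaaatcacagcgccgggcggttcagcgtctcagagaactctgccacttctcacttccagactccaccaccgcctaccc

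In the CLDN4 window a match began 14 bases before the start and another 11 bases after the first base of the transcript. The CLDN7 window held matches beginning 97 and 57 bases before its start, and the TJP3 window 1 that began 108 bases before. The CLDN3 window held 1 beginning 31 bases after the first base of the transcript. Cldn3 and Cldn4 are neighbors on chromosome 5, with 39.3 kb between them. The 11 windows ranged from 45.3% to 70.3% G and C, against a median of 52.7% over all promoters.

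In sorted tumor cells, most of the genes were higher with either hairpin against B7-H3. With both hairpins as 1 group, 7 of 9 rose and none fell, whereas 12.6% of all 11424 genes tested rose and 7.92% fell. The 9 were chosen with earlier results of these data known, so this count only describes them. CGN passed the filter only with the help of libraries labelled sh-B7-H3, and 6 of the other 8 rose. CLDN7 rose most, followed by TJP3, CGN, CLDN8, CLDN4, OCLN and CLDN3, while CLDN1 and TJP1 were not called. The median log2 fold change of the 9 was 1.19, beside 0.007 for all genes tested. With sh-B7-H3 (1) alone 7 rose (9.03% of all genes), with a median of 1.44. With sh-B7-H3 (2) alone 7 rose (11.7% of all genes), with a median of 0.94. Without replicate 1 of that group 6 rose, where 804 of all 10901 genes tested rose. There CLDN8, CLDN3, OCLN, TJP3 and CGN were at 1.08, 0.70, 0.70, 1.92 and 1.74 (adjusted p of 0.00978, 0.0272, 0.0281, 0.000761 and 0.00479, limma), and CLDN7 and CLDN4 are given below. These were the same 7 genes, but the comparisons share their sh-NC libraries and are not independent. Without overlap between libraries, 7 genes were higher with both hairpins against 13.6% of all genes. In RNA from mixed cells, more cells of a type and more RNA per cell cannot be told apart.

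**Figure D1:**
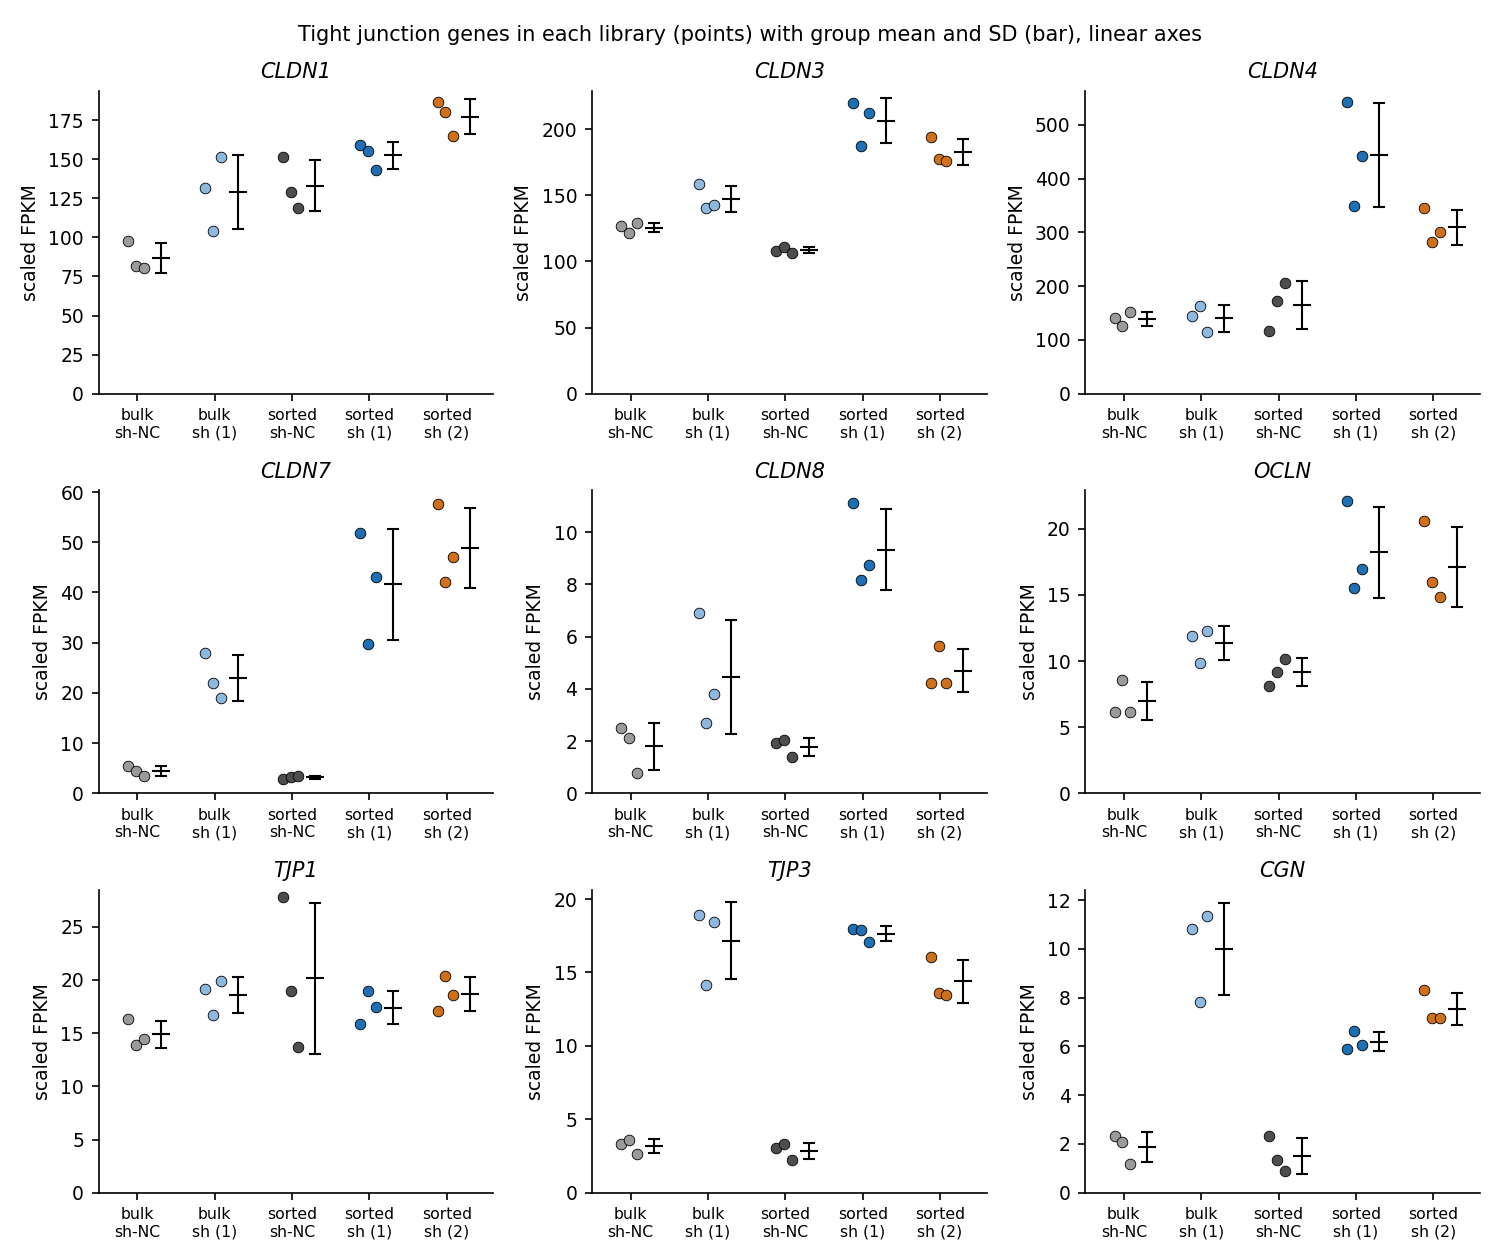
Levels (scaled FPKM, linear axes from 0) of the 9 genes in each of the 15 libraries, as points by group, with the group mean and SD (n = 3) as a bar beside them. CLDN7 sat between 2.76 and 3.42 in sorted sh-NC cells and between 29.8 and 57.7 in the 6 sorted libraries labelled sh-B7-H3, whereas TJP1 overlapped between those groups.

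CLDN7, a claudin found along the basolateral membrane as well as at the junction, was at 2.76, 3.29 and 3.42 in sorted sh-NC cells, at 51.8, 29.8 and 43.2 with sh-B7-H3 (1), and at 57.7, 42.1 and 47.0 with sh-B7-H3 (2). Every library labelled sh-B7-H3 lay far above every sh-NC library, and the mean level was 14.3 times higher. Its log2 fold change was 3.33 ± 0.20 (SE, adjusted p = 7.08e-05, limma) with sh-B7-H3 (1) and 3.58 ± 0.15 (adjusted p = 4.19e-05, limma) with sh-B7-H3 (2). Without replicate 1 of sorted sh-B7-H3 (2) the second value was 3.46 (adjusted p = 0.000336, limma).

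CLDN8, a claudin of the collecting duct, was a low transcript. Its levels were 1.92, 2.05 and 1.40 with sh-NC, 11.1, 8.16 and 8.74 with sh-B7-H3 (1), and 4.22, 5.65 and 4.21 with sh-B7-H3 (2). The 3 groups did not overlap, and those labelled sh-B7-H3 (1) were highest. The log2 fold change was 1.89 ± 0.16 (adjusted p = 0.000183, limma) for (1) and 1.03 ± 0.16 (adjusted p = 0.00324, limma) for (2).

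CLDN4 was the most abundant of the 5 claudins in 12 of the 15 libraries. It is a barrier-forming claudin that is bound, like CLDN3, by a Clostridium perfringens toxin. It was at 116, 172 and 205 in sorted sh-NC cells, at 542, 349 and 442 with sh-B7-H3 (1), and at 346, 282 and 301 with sh-B7-H3 (2). The sh-NC libraries were widely spread but all lay below. CLDN4 rose by 1.44 ± 0.26 on the log2 scale (adjusted p = 0.0071, limma) with (1) and by 0.94 ± 0.22 (adjusted p = 0.0234, limma) with (2). The call for (2) was lost without sorted sh-NC replicate 2 (adjusted p = 0.0704) and without replicate 1, 2 or 3 of sorted sh-B7-H3 (2) (adjusted p of 0.0856, 0.0664 and 0.0899, limma), as well as without the filter (adjusted p = 0.0565).

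CLDN3 varied less between libraries than CLDN4. Its levels were 108, 111 and 106 with sh-NC, 219, 187 and 212 with sh-B7-H3 (1), and 194, 178 and 176 with sh-B7-H3 (2). The sh-NC libraries lay close together and below all others. The log2 fold change was 0.92 ± 0.14 (adjusted p = 0.00288, limma) for (1) and 0.75 ± 0.12 (adjusted p = 0.00496, limma) for (2).

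CLDN1, a barrier claudin of skin and many epithelia, was already abundant in sorted sh-NC cells, at 151, 129 and 119. It was at 159, 155 and 143 with sh-B7-H3 (1), overlapping sh-NC, and at 187, 180 and 165 with sh-B7-H3 (2), above it. Neither difference was called: 0.20 on the log2 scale with (1) (95% interval -0.14 to 0.54, adjusted p = 0.486) and 0.42 with (2) (0.075 to 0.76, adjusted p = 0.0926, limma). Without sorted sh-NC replicate 1, CLDN1 was called with (2) (0.51, adjusted p = 0.0178) and with both hairpins (0.40, adjusted p = 0.0402, limma). It was also called with (2) when all groups were in 1 fit (adjusted p = 0.0404) and with both hairpins when FPKM was left as deposited (0.52, adjusted p = 0.0441, limma).

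The claudin make-up of the sorted cells therefore differed between groups. CLDN7 made up 0.726% to 0.787% of the summed level of the 5 claudins in sorted sh-NC cells, 4.09% to 5.27% with sh-B7-H3 (1), and 6.12% to 7.31% with sh-B7-H3 (2). CLDN1 made up 27.4% to 39.8% with sh-NC, 16.2% to 21.3% with (1), and 23.7% to 26.2% with (2). CLDN4, CLDN3 and CLDN1 remained the 3 main claudins in every library. The summed level of the 5 was 411 ± 28.2 (SD, n = 3) with sh-NC, 854 ± 128 with (1) and 723 ± 56.7 with (2).

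**Figure D2:**
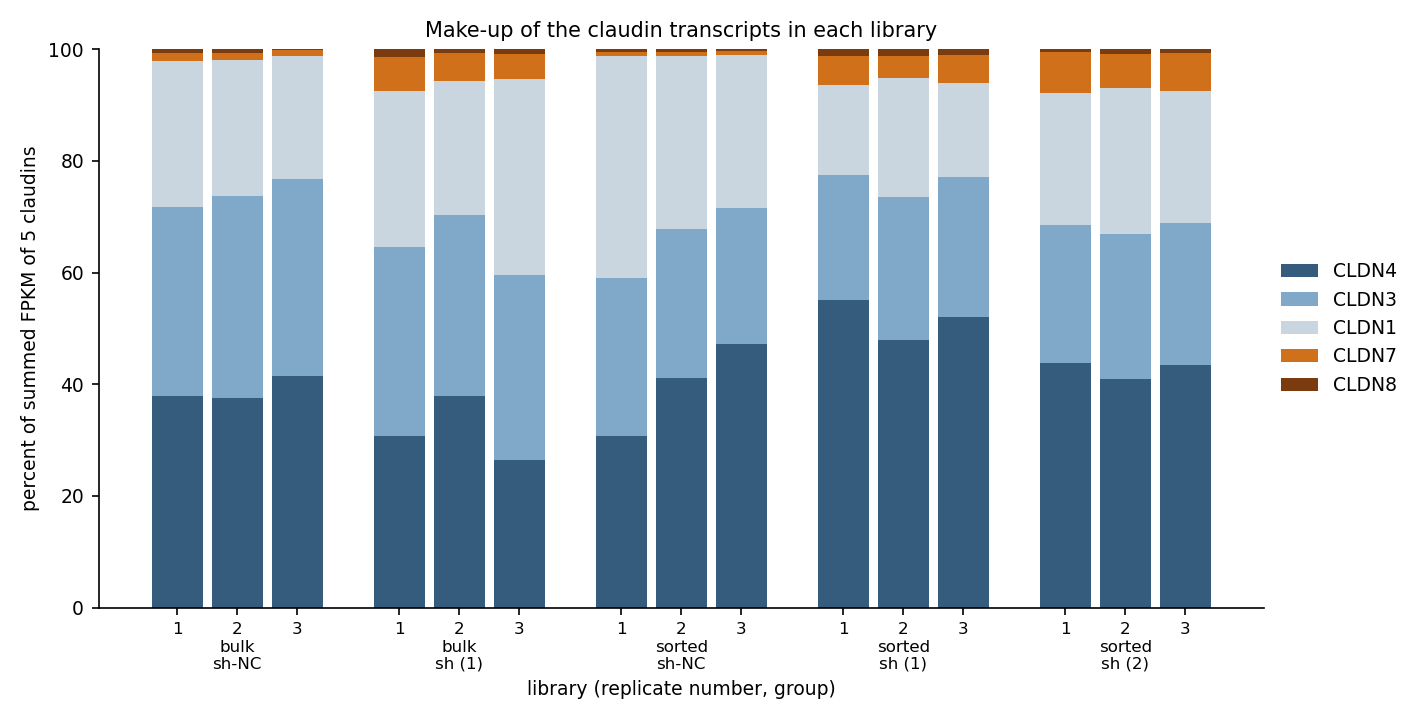
Share of each of 5 claudins in their summed level (percent of summed scaled FPKM) in each of the 15 libraries, by group and replicate number. CLDN7, near the top of each bar, is thin in the sh-NC libraries, at most 1.45%, and wider in all libraries labelled sh-B7-H3, at least 4.09%, whereas the CLDN8 share overlaps between them (up to 0.665% and from 0.535%).

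Among the other strand and plaque proteins, OCLN was at 8.13, 9.20 and 10.2 with sh-NC, at 22.1, 15.5 and 17.0 with sh-B7-H3 (1), and at 20.6, 16.0 and 14.9 with sh-B7-H3 (2). Every library labelled sh-B7-H3 was above all of sh-NC, and OCLN rose by 0.91 ± 0.16 (adjusted p = 0.00757) and 0.83 ± 0.16 (adjusted p = 0.00863, limma) on the log2 scale. The zonula occludens genes went separate ways.

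TJP3, whose product is found mainly in epithelia, was at 3.06, 3.29 and 2.26 with sh-NC, at 18.0, 17.9 and 17.1 with sh-B7-H3 (1), and at 16.0, 13.6 and 13.5 with sh-B7-H3 (2). The groups were far apart and tight, with log2 fold changes of 2.28 ± 0.14 (adjusted p = 7.34e-05) and 2.00 ± 0.15 (adjusted p = 0.000127, limma). Annotated genes overlap 4 of the 9: the protein-coding Apba3 overlaps Tjp3, the long noncoding Wbscr25 and Gm52626 overlap Cldn3 and Cgn, and a small nucleolar RNA gene overlaps Ocln. How reads in the overlaps were counted is not stated.

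TJP1, the widely expressed scaffold, was at 27.8, 19.0 and 13.7 with sh-NC, at 15.8, 19.0 and 17.4 with (1), and at 17.1, 20.3 and 18.6 with (2). All 6 libraries labelled sh-B7-H3 lay inside the range of sh-NC. The log2 differences were -0.15 (95% interval -0.69 to 0.39) and -0.051 (-0.59 to 0.49), with adjusted p of 0.776 and 0.908 (limma), and both turned positive (0.039 and 0.17) when FPKM was left as deposited. CGN, by contrast, was at 2.32, 1.34 and 0.891 with sh-NC, at 5.89, 6.63 and 6.05 with (1), and at 8.31, 7.17 and 7.17 with (2). It rose by 1.55 ± 0.20 (adjusted p = 0.00144) and 1.80 ± 0.21 (adjusted p = 0.000815, limma), with no overlap. It was above 1 in 2 of the 3 sorted sh-NC libraries, fewer than the filter asks.

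**Figure D3:**
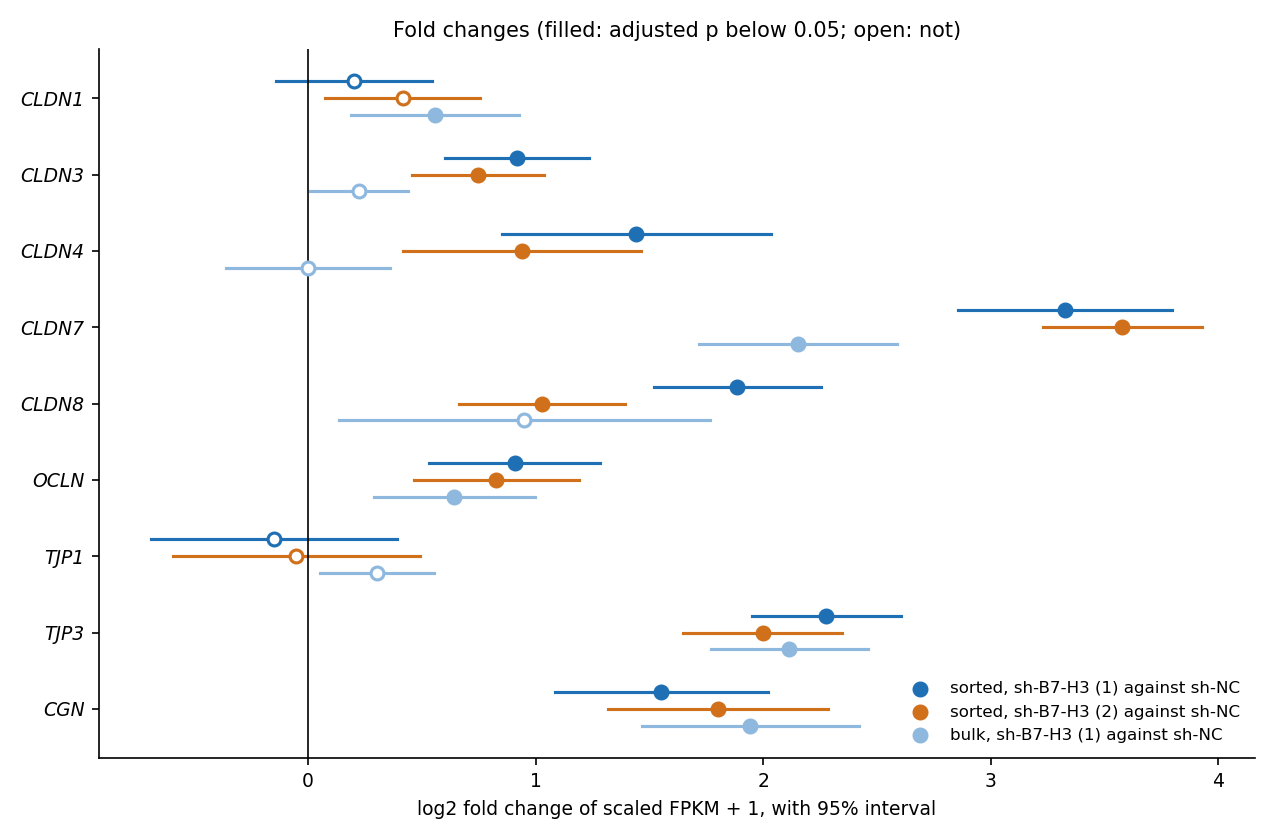
Log2 fold changes of level + 1 against sh-NC, with 95% intervals from limma, for sorted cells with either hairpin and for bulk tumors. Filled points had an adjusted p below 0.05. CLDN7, TJP3, CGN and OCLN are filled in all 3 comparisons, whereas CLDN4 is at 1.44 and 0.94 in sorted cells and at 0.00045 in bulk tumors.

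The hairpins were then compared with each other in sorted cells. CLDN8 was the only one of the 9 genes that differed, higher with sh-B7-H3 (1) than with (2) by 0.86 ± 0.15 on the log2 scale (adjusted p = 0.0263, limma), and 3.4% of all 11239 genes differed in either direction. The call was lost without replicate 1, 2 or 3 of sorted sh-B7-H3 (1) (adjusted p of 0.0562, 0.0755 and 0.0922) and without replicate 3 of sorted sh-B7-H3 (2) (adjusted p = 0.114, limma), and stood without its replicate 1 (0.80, adjusted p = 0.0229). It was also lost without the filter (adjusted p = 0.0836) and with all groups in 1 fit (adjusted p = 0.108). Replicate numbers were also used as blocks, on a pairing that was read from these same values and is not stated by the labels. CLDN8 (adjusted p = 0.0298), CLDN4 (0.50 higher with (1), adjusted p = 0.0274) and CLDN1 (-0.22, adjusted p = 0.0493, limma) then differed, and 1864 genes were called in place of 382. TJP3 (0.28 higher with (1), 95% interval 0.057 to 0.50 without and 0.11 to 0.45 with the block) and CGN (-0.25, -0.48 to -0.022 and -0.47 to -0.028) had intervals on 1 side of 0 and libraries that did not overlap, but were not called (adjusted p of 0.153 and 0.197 without and 0.0509 and 0.108 with the block, limma). CLDN7 (-0.73 to 0.23 without and -0.48 to -0.023 with the block) and CLDN3 (-0.072 to 0.42 and 0.014 to 0.33) had intervals on 1 side of 0 only with the block. Those of OCLN (-0.30 to 0.46 and -0.091 to 0.25) and TJP1 (-0.34 to 0.15 and -0.23 to 0.037) held 0 in both.

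In bulk tumors labelled sh-B7-H3 (1), 5 of the 9 genes rose and none fell, where 12.8% of all 11800 genes rose and 8.52% fell. These were CLDN7, TJP3, CGN, OCLN and CLDN1. The median log2 fold change of the 9 was 0.64, beside 0.0235 for all genes tested. In 8 of 9 genes the libraries did not overlap and were higher, as in 24.4% of all genes. CLDN8 is among these and passed the filter only with the help of libraries labelled sh-B7-H3 (1). It was not called, and 5 of the other 8 rose.

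CLDN7 in bulk was at 5.42, 4.34 and 3.40 with sh-NC and at 27.9, 21.9 and 19.0 with sh-B7-H3 (1). It rose by 2.15 ± 0.18 on the log2 scale (adjusted p = 0.00226, limma). TJP3 was at 3.30, 3.61 and 2.64 against 18.9, 14.2 and 18.4, a rise of 2.11 ± 0.15 (adjusted p = 0.00195, limma).

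CGN in bulk was at 2.35, 2.08 and 1.18 against 10.8, 7.82 and 11.3, a rise of 1.94 ± 0.20 (adjusted p = 0.00307, limma). For CLDN7, TJP3 and CGN the lowest library labelled sh-B7-H3 (1) was 3.51, 3.92 and 3.33 times the highest sh-NC library. OCLN was at 6.14, 8.60 and 6.14 against 11.9, 9.88 and 12.3 (0.64 ± 0.15, adjusted p = 0.0281, limma), and CLDN1 at 97.6, 81.7 and 80.5 against 131, 104 and 152 (0.56 ± 0.16, adjusted p = 0.0457, limma).

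These last calls were near the threshold. CLDN1 was no longer called without any of the 3 sh-NC libraries or without replicate 1 or 3 of bulk sh-B7-H3 (1) (adjusted p from 0.064 to 0.158), and OCLN without sh-NC replicate 1 or 3 or replicate 1 or 3 of bulk sh-B7-H3 (1) (adjusted p from 0.0629 to 0.118, limma). Both calls were lost with FPKM as deposited (adjusted p of 0.307 for CLDN1 and 0.258 for OCLN) and without the filter (adjusted p of 0.0771 and 0.0538, limma). CLDN8 was called with FPKM as deposited (0.91, adjusted p = 0.0134) and with all groups in 1 fit (adjusted p = 0.0273, limma). Without replicate 2 of bulk sh-B7-H3 (1), CLDN8 (adjusted p = 0.0345) and TJP1 (adjusted p = 0.0363, limma) were called as well.

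CLDN4 in bulk was at 141, 126 and 152 with sh-NC and at 144, 164 and 114 with sh-B7-H3 (1). The groups overlapped, and the log2 difference was 0.00045 (95% interval -0.36 to 0.36, adjusted p = 0.999, limma). CLDN3 was at 126, 122 and 129 against 159, 140 and 143 (0.22, adjusted p = 0.117, limma), and CLDN8 at 2.48, 2.13 and 0.781 against 6.90, 2.69 and 3.81 (0.95, adjusted p = 0.0878, limma), with no overlap in either.

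Whether hairpin (1) moved a gene more in sorted cells than in bulk was tested as an interaction. None of the 9 genes passed limma's threshold, and 0.464% of all 12062 genes did. At an unadjusted p below 0.05, 4 were larger in sorted cells, as were 7.35% of all genes: CLDN4 by 1.44 on the log2 scale (95% interval 0.75 to 2.13, adjusted p = 0.0856), CLDN3 by 0.70 (0.38 to 1.01, adjusted p = 0.074), CLDN7 by 1.17 (0.53 to 1.82, adjusted p = 0.122) and CLDN8 by 0.94 (0.043 to 1.83, adjusted p = 0.334, limma). CLDN4 was called when FPKM was left as deposited (1.60, adjusted p = 0.042), and CLDN3 without the filter (adjusted p = 0.0373) and with all groups in 1 fit (adjusted p = 0.0475, limma). The values for TJP3 (0.16, -0.28 to 0.61), OCLN (0.27, -0.23 to 0.76) and CGN (-0.39, -1.07 to 0.28) had intervals on both sides of 0.

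Sorted cells and bulk RNA of control tumors were also compared. CLDN1 alone was called, higher in sorted cells (mean 133 against 86.6) by 0.61 ± 0.15 on the log2 scale (adjusted p = 0.0321, limma), and 16.9% of all 11418 genes differed in either direction. The call was lost without bulk sh-NC replicate 1, 2 or 3 or sorted sh-NC replicate 2 (adjusted p from 0.0956 to 0.182), and with FPKM as deposited (adjusted p = 0.262). CLDN4 was called higher in sorted cells without sorted sh-NC replicate 1 (0.43, adjusted p = 0.0465, limma). CLDN3 was lower in every sorted library than in any bulk library but was not called (-0.21, 95% interval -0.49 to 0.071), and the intervals of others were wide, as for TJP1 (-0.18 to 0.90) and CGN (-0.76 to 0.35). Summed endothelial markers were 0.298 to 0.607 in sorted sh-NC and 25.2 to 41.3 in bulk sh-NC. Leukocyte sums were 31.5 to 41.4 and 418 to 792, and fibroblast sums overlapped (48.0 to 111 and 94.5 to 175). Skeletal muscle sums were higher in sorted cells (61.8 to 110 against 2.50 to 21.2). The part of these cell types was not tested.

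The remaining genes of the junction were read from lists by role, written with earlier results of these data known. Their counts stand beside 12.6% of all genes that rose in sorted cells with both hairpins and 12.8% in bulk. Of the proteins at contacts of 3 cells and the occludin relatives, 4 of 5 were tested and all 4 rose in sorted cells with either hairpin and in bulk. ILDR1 (angulin-2, a tricellular receptor) was at 2.24, 1.98 and 1.02 in sorted sh-NC cells, at 29.5, 21.1 and 19.7 with sh-B7-H3 (1), and at 35.6, 29.3 and 26.8 with (2). Its log2 fold changes were 3.16 ± 0.22 (adjusted p = 9.77e-05) and 3.54 ± 0.20 (adjusted p = 5.5e-05, limma). MARVELD3, LSR (angulin-1) and MARVELD2 (tricellulin) rose by 2.33, 2.00 and 1.51 with both hairpins, and ILDR2, at 0.356 or lower in every library, was not tested.

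Membrane proteins that bind or cleave at claudins, with their inhibitors, rose: 5 of 5 with each hairpin and in bulk, where 4 were called with FPKM as deposited. EPCAM, which binds CLDN7 and steadies it, was at 20.3, 27.4 and 17.2 in sorted sh-NC cells, at 168, 150 and 126 with sh-B7-H3 (1), and at 221, 177 and 164 with (2), with no overlap. The serine protease ST14 (matriptase), which cuts EPCAM, rose by 2.89 with both hairpins, and its inhibitor SPINT1 by 2.86 (adjusted p at most 2.16e-06, limma). The protease PRSS8 (prostasin) and the inhibitor SPINT2 rose by 1.91 and 0.86. PRSS8 was below 1 in 2 of the 3 sorted sh-NC libraries and passed the filter through the other groups. In bulk too, PRSS8 passed only with the help of libraries labelled sh-B7-H3 (1), and 4 of the other 4 rose.

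Of the PAR and Crumbs polarity genes, 4 of 9 tested rose with both hairpins and 5 of 9 in bulk, where 2 were called with FPKM as deposited. CRB3, the epithelial Crumbs protein, ran from 6.81 to 13.2 in the 3 sorted sh-NC libraries, from 28.5 to 48.3 with (1) and from 39.1 to 48.5 with (2). PARD6B and PRKCZ, partners in the PAR complex, rose by 1.13 and 0.91 with both hairpins. PRKCZ was under 1 in all 3 sorted sh-NC libraries and passed the filter only through the other groups, and 3 of the other 8 rose. In bulk too, PRKCZ passed only with the help of libraries labelled sh-B7-H3 (1), and 4 of the other 8 rose. Without replicate 1 of sorted sh-B7-H3 (2), 2 genes (CRB3 and PARD6B) and not 4 rose with (2), beside 804 of all 10901 genes.

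Plaque and adhesion genes were read in the same way. AMOT (angiomotin, a scaffold) rose with both hairpins by 1.43 ± 0.20 (adjusted p = 0.000523, limma) and was the only 1 of 14 plaque genes called, whereas in bulk AMOT, MAGI3 and ARHGAP17 rose, 3 of 15, and AMOT alone was called with FPKM as deposited. Of the 7 junctional adhesion molecules and CXADR relatives, 3 were tested in sorted cells. IGSF5 (JAM-4) alone was called with both hairpins and was lower by 0.51 ± 0.15 (adjusted p = 0.0384, limma). That call was lost without replicate 1 of sorted sh-B7-H3 (2) and with FPKM as deposited, where F11R (JAM-A) was called higher in its place. In bulk 4 were tested and IGSF5 alone was called, again lower, where 8.52% of all genes fell. The bulk call was also lost with FPKM as deposited.

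Of 31 other claudins, 26 were in the table and 5 passed the filter in sorted cells. CLDN23 was at 0.413, 0.710 and 0.283 in sorted sh-NC cells and between 4.53 and 7.87 with sh-B7-H3, so it passed the filter only through the groups where it was high, and it did not pass for (2) without replicate 1. CLDN2, a pore-forming claudin, was at 10.4, 45.6 and 43.2 with (2) against 20.9, 15.8 and 15.7 with sh-NC. It was not called with (2) (0.64, adjusted p = 0.436) but rose without replicate 1 of (2) (1.31 ± 0.17, adjusted p = 0.00405, limma). In that same fit CLDN15 fell (-1.38 ± 0.14, adjusted p = 0.00126, limma). With both hairpins and without that library, CLDN2 and CLDN15 were not called (adjusted p of 0.639 and 0.377, limma). With (2) and all its libraries, 1 of the 5 claudins rose and 2 fell, where 1313 and 837 of all 11243 genes did. CLDN34C1 fell by 0.93 ± 0.18 on the log2 scale with both hairpins (adjusted p = 0.00392, limma). In bulk, CLDN5, the claudin of blood vessels, was at 4.36, 7.34 and 9.49 with sh-NC against 2.34, 3.72 and 0.967 with sh-B7-H3 (1). It fell by 1.31 (adjusted p = 0.0441, limma). Of 7 endothelial markers tested in bulk, 0 were called, where 12.8% of all genes rose and 8.52% fell. Summed endothelial markers were 25.2 to 41.3 with sh-NC and 28.7 to 40.6 with sh-B7-H3 (1). The part of vessel cells in the CLDN5 difference was not tested.

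**Figure D4:**
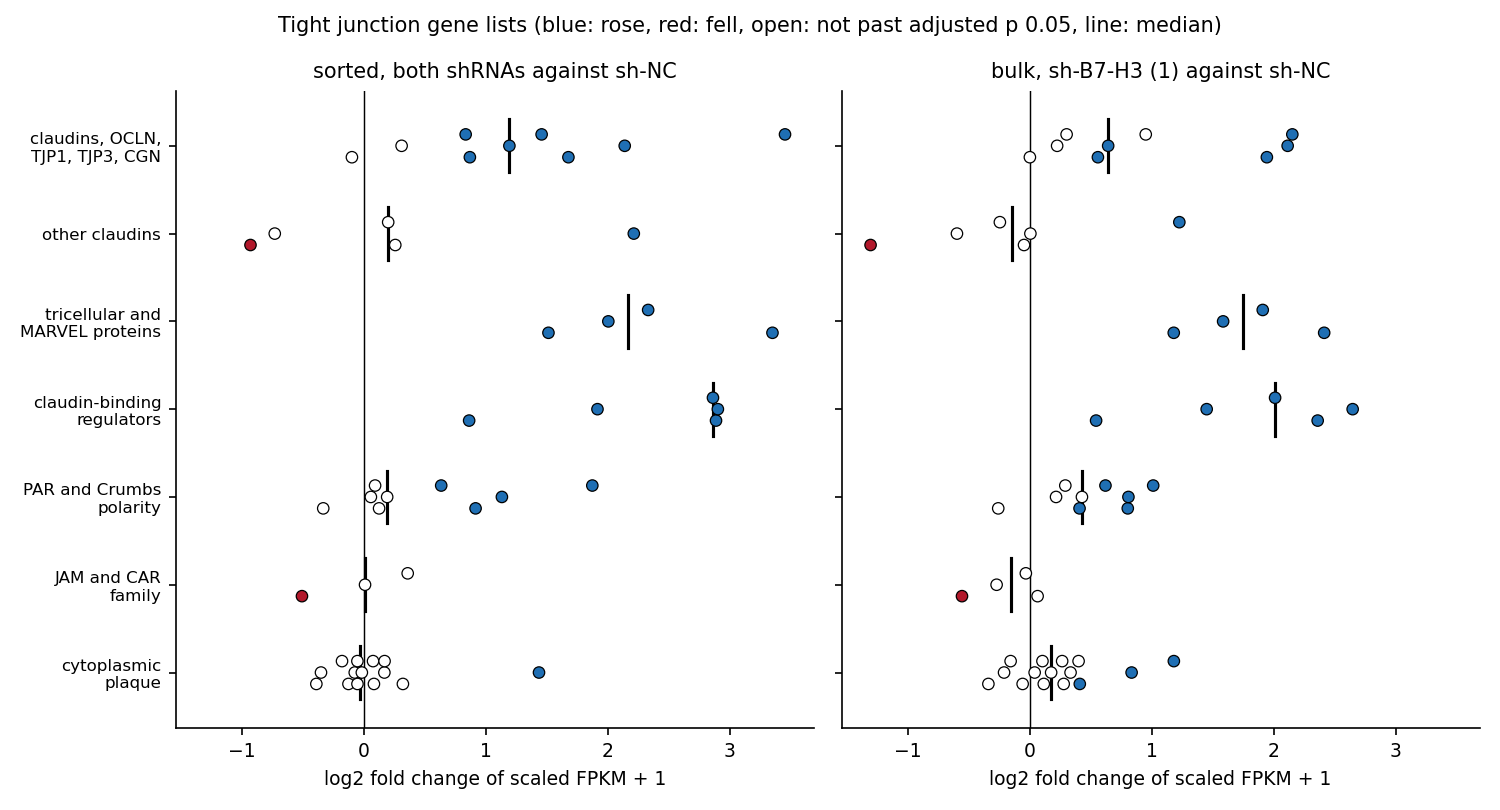
Log2 fold changes of level + 1 for the tested genes of 7 tight junction lists, in sorted cells with both hairpins against sh-NC and in bulk tumors with hairpin (1). Blue points rose and red points fell at an adjusted p below 0.05 (limma), open points did not pass, and the line is the list median. The tricellular list (medians 2.17 and 1.75) and the claudin-binding list (2.86 and 2.01) lie to the right of 0 in every point, and the plaque list is centered near -0.037 in sorted cells.

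Some cell type markers differed between these groups as well, and others did not. With both hairpins in sorted cells, 0 of 7 fibroblast, 0 of 7 skeletal muscle and 0 of 3 adipocyte markers tested were called. Of all genes, 12.6% rose there and 7.92% fell. In sorted cells, 3 of 5 epithelial markers rose with both hairpins (EPCAM, KRT18 and KRT19), and their summed level went from between 796 and 964 in sh-NC to between 1368 and 1772, while CDH1 was not called (-0.46, adjusted p = 0.0854, limma). Of 12 keratinocyte markers, 11 were in the table, 5 passed the filter and 4 rose, but 4 of the 5 (DSG3, IVL, KRT10 and SBSN) passed only with the help of libraries labelled sh-B7-H3. Their summed level was 6.01 to 10.3 with sh-NC and 29.9 to 48.8 with sh-B7-H3, led by IVL, KRT14 and DSG3, with KRT5 and TRP63 at 0.427 or lower in all sorted libraries. Of 10 leukocyte markers 3 passed the filter (CSF1R only with the help of libraries labelled sh-B7-H3) and 2 rose with both hairpins. Their summed level was 31.5 to 41.4 with sh-NC and 60.3 to 92.5 with sh-B7-H3 apart from replicate 1 of (2). The leukocyte marker PTPRC was at 0.158 or lower in all sorted libraries but that one. Summed fibroblast markers were 48.0 to 111 in sorted sh-NC, 66.0 to 106 with (1) and 135 to 168 with (2), where 3 of 7 tested rose (2 without replicate 1). In bulk, they went from between 94.5 and 175 to between 279 and 667, and summed skeletal muscle markers from between 2.50 and 21.2 to between 36.2 and 734. Their part in the results was not tested.

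The genes closest in pattern were sought over all 15 libraries, as the smallest root mean square difference of centered log2 values among 11595 genes with a mean level of at least 1. CLDN7 was closest to TMPRSS4, a membrane serine protease (0.253, where the spread of CLDN7 itself was 1.51), TJP3 to GRASP (0.151), CGN to the receptor ERBB3 (0.156), OCLN to ZDHHC13 (0.139) and CLDN8 to TMEM116 (0.282). CLDN1 was closest to FAM135A (0.0848), CLDN3 to MAFK (0.0933), CLDN4 to LAP3 (0.228) and TJP1 to ARHGEF12 (0.0894). Among the 9 genes, the smallest differences were for CLDN3 with OCLN (0.280), CLDN1 with TJP1 (0.303) and CLDN1 with OCLN (0.307). The measure is not divided by a gene's own spread, so small values also arise between genes that vary little. The spreads of CLDN3, OCLN, CLDN1 and TJP1 themselves were 0.343, 0.514, 0.370 and 0.236. TJP3 with CGN came next (0.320), and their own spreads were larger, at 1.05 and 0.899.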

How the data were processed

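RNA sequencing of 15 libraries was read from 1 table of FPKM values that the authors deposited. The submitters' processing notes name mm10, and the aligner and annotation are not given in the sources used here. The paper names the KAPA mRNA HyperPrep kit and the labels an Illumina stranded kit. A further deposited table of log2 values for a subset of genes was not used. The 9 genes, the lists and the tests were chosen with earlier results of these data known, and some list genes are not reported here.

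Of 24917 entries, 26 with symbols turned into dates were left out. FPKM was divided by median-ratio factors (0.65 to 1.18) computed from the 9872 genes that reached 1 FPKM in all libraries, since MIR6236 held between 6.01% and 79.7% of summed FPKM, which ranged from 435533 to 1544000. Genes reaching 1 scaled FPKM in at least 3 of the libraries compared were tested by limma 3.58.1 (R 4.3.3, mean-variance trend) on log2(value + 1). The test was checked on simulated data. Means and the searches for motifs and similar genes used Python 3.11.15 with pandas 2.3.3 and numpy 2.4.6. Promoters came from RefSeq, GRCm38.p6.

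Replicates correlated with r between 0.906 and 0.986 across 12194 genes, which are not independent. Same-numbered libraries of sorted sh-B7-H3 (1) and (2) deviated together (r of 0.209, 0.229 and 0.209 for numbers 1, 2 and 3), so the numbers, which come from the sample labels, were taken to pair these groups. The labels do not state a pairing, and libraries with unlike numbers reached an r of 0.544 in another pair of groups. Named genes are all 9, CD276, list genes called in both single-hairpin comparisons, the 3 of each list with the largest change in bulk, and the nearest gene in pattern. Others (CLDN2, CLDN15, F11R, ILDR2, and single marker genes) were named after their values were seen. Alternatives were FPKM as deposited, a pseudocount of 0.1, no filter, a filter in every library, replicate numbers as blocks, all groups in 1 fit, an absolute log2 fold change above 1, and leaving out each library. List counts with FPKM as deposited and without replicate 1 of sorted sh-B7-H3 (2) were added after seeing the data. Read depth is unknown, so no counting intervals are given.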

Additional observations from a re-analysis of the deposited data

How the results depend on the processing

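Of 829 values of single genes under alternatives, 767 kept their direction and their side of the threshold, 33 lost a call, 14 gained one and 15 changed sign, all of these in genes not called. Without the scaling, that is with FPKM as deposited, the median over all genes tested was 0.174, 0.213 and 0.196 for sorted sh-B7-H3 (1), (2) and both against sh-NC, and 0.125 for the sorted minus bulk difference. The share of calls that were higher was then 84.2%, 83.2% and 86.4% (67.3%, 61.1% and 61.4% with scaling), 70.2% (60.1%) in bulk, 20.2% (38.5%) for sorted against bulk sh-NC, and 67.2% (53.6%) for the difference. TJP1 turned to 0.039, 0.17 and 0.11 there, and to 0.0070 for (2) without its replicate 1. With each library left out it ran from -0.39, -0.29 and -0.34 without sorted sh-NC replicate 3 to 0.10, 0.20 and 0.15 without sorted sh-NC replicate 1. In (1) against (2), OCLN ran from -0.060 to 0.21 and was also -0.010 without (2) replicate 3. CLDN4 in bulk ran from -0.12 to 0.14, with -0.073 and -0.026 without sh-NC replicate 2 or sh-B7-H3 (1) replicate 1. For sorted against bulk sh-NC, CLDN8 ran from -0.25 to 0.23, with -0.022 without sorted replicate 2, and TJP3 from -0.21 to 0.0033. The cause was not tested.

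Among all genes, calls with FPKM as deposited were 961 in bulk, 652 for sorted against bulk sh-NC and 128 for the difference, in place of 2520, 1924 and 56. Of the 9 genes, 0 were then called for sorted against bulk sh-NC, and 1 for the difference. A pseudocount of 0.1 gave 25 calls for the difference. Without the filter, (1) against (2) gave 137 calls and 0 of the 9 genes, bulk gave 3 of the 9, and the difference 1. A filter in every library gave 1279 for sorted against bulk sh-NC and 13 for the difference, and tested fewer genes. All groups in 1 fit gave 3082 and 36, with 0 of the 9 genes for (1) against (2) and 1 for the difference. An absolute log2 fold change above 1 left 716, 911 and 748 calls for (1), (2) and both against sh-NC, 119 for (1) against (2), 606 in bulk and 545 for sorted against bulk sh-NC, with 4 of the 9 genes for (2), 3 in bulk, and 0 for (1) against (2) and for sorted against bulk sh-NC.

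With replicate numbers as blocks, calls were 915 and 1395 for (1) and (2) against sh-NC, in place of 1497 and 2150, and 1864 in place of 382 for (1) against (2). Bulk gave 1413 and the difference 24. Of the 9 genes, 3 were called in (1) against (2) and 3 in bulk under the block, OCLN was lost with (1) (adjusted p = 0.0537), CLDN4 with (2) (adjusted p = 0.0789), and CLDN1 and OCLN in bulk (adjusted p of 0.0661 and 0.0739, limma). Of 30 same-numbered pairs, 7 had a correlation of deviations above 0.1 (range -0.463 to 0.443), and by the labels the libraries share only a number. In 1 of 10 group pairs every library correlated best with its own number.

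Leaving out each library in turn gave 722 to 1948 calls with 7 of the 9 genes throughout for (1) against sh-NC, 962 to 3614 with 6 to 8 for (2), 1414 to 2584 with 7 to 8 for both, 35 to 890 with 0 to 1 for (1) against (2), 546 to 3793 with 3 to 7 in bulk, 139 to 4436 with 0 to 2 for sorted against bulk sh-NC, and 12 to 72 with 0 for the difference. Read depth is unknown, so precision rests on the spread between 3 libraries a group.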
